A study of Rattus norvegicus with 12 samples.

Results

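Probes for 4 enzymes of glycolysis, pyruvate handling and succinate oxidation were followed across the kidneys of 4 rat strains. They were the non-control probes of a circRNA array whose RefSeq mRNA accession is that of Ldha (2 probes, A_44_P210461 and CUST_6_PI421900130), Pgk1 (CUST_2_PI421900130), Pdk3 (A_44_P443343) or Sdha (CUST_12_PI421900130). This gave 5 probes for 4 genes, out of 39 mRNA probes for 38 named genes and 14227 non-control probes in all. Of 72 genes listed for glycolysis, pyruvate and the citrate cycle, these 4 had a named mRNA probe, so they stand for single steps and not for the pathway.

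The kidneys came from male rats of the Dahl salt-sensitive strain (S), the Dahl salt-resistant strain (R), the spontaneously hypertensive rat (SHR) and the Wistar Kyoto rat (WKY), with 3 rats and 3 arrays in each strain. S and SHR are inbred models of hypertension, and R and WKY are their usual normotensive counterparts. All 12 rats were weaned at 28 to 30 days onto chow with 0.3% NaCl and killed at 57 days, and the labels name no drug and no engineered allele in any group. Before random-primed Cy3 labelling, total kidney RNA had been treated with RNase R, a 3′ to 5′ exonuclease that removes most linear RNA and spares circles. The signals described here are therefore those of mRNA sequence that was left after digestion. In whole kidney, fewer cells of a type and less RNA per cell cannot be told apart. Neither can be told apart from a smaller share of the mRNA left after digestion. The labelled tissue could not be checked, because none of 31 listed marker genes of kidney and blood cell types had a named mRNA probe.

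In glycolysis, glucose is split into pyruvate in the cytosol, and phosphoglycerate kinase makes ATP on the way. Pyruvate is then either reduced to lactate by lactate dehydrogenase or carried into mitochondria, where pyruvate dehydrogenase turns it into acetyl-CoA for the citrate cycle, in which succinate dehydrogenase oxidises succinate. Kidney cortex burns mainly fatty acids and other non-sugar fuels and makes glucose, whereas the inner medulla, with little oxygen, depends more on glycolysis.

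Values are log2 signals, averaged over the 10 spots of a probe, minus the 75th percentile of the circRNA probes on the same array, so that 0 is the level of a fairly bright circRNA probe. Across arrays this percentile ran from 6.22 log2 units (S rat 1) to 8.15, and 70.3% (S rat 1) to 91.1% of circRNA probes were well above background. Without S rat 1 the ranges were 7.02 to 8.15 and 83.9% to 91.1%. The 30 other named mRNA probes bright enough to test had medians of -2.62 to -2.21 on the S and R arrays and on SHR rat 2 (-2.39), of -1.89 on WKY rat 1, and of -1.26 to -0.83 on SHR rats 1 and 3 and WKY rats 2 and 3. SHR rat 2 thus stood with the Dahl strains and apart from its own strain. The labels name no slide, so arrays that share a scan identifier in the file headers are taken here as 1 slide. On that basis S, R and WKY rats 1 and 2 shared slide 1, and WKY rat 3 shared slide 2 with the SHR rats.

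All 5 enzyme probes were well above background in 120 of 120 spots and saturated in none. The SD between the spots of a probe within an array had a median of 0.042 to 0.060 log2 units over the probes and never exceeded 0.158, which was reached by Pdk3 on the dim array of S rat 1. The range over the 12 rats was far wider, from 2.48 log2 units for Ldha A_44_P210461 to 5.73 for Ldha CUST_6_PI421900130. Spot noise within an array was therefore small beside the differences between arrays. With 1 array per rat, differences between rats cannot be told apart from those between preparations or arrays.

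The sequence before the start site of 3 of the 4 genes is shown because the RefSeq table pairs them with a promoter and because Ldha is a textbook target of hypoxia-inducible factor. Each line gives the 250 bases before the annotated start, from the RefSeq promoter table of assembly GRCr8. Capitals mark ACGTG or its reverse complement CACGT, a form of the core of the hypoxia response element. Other forms of the core, such as GCGTG, were not searched or marked. No line is shown for Pgk1.
Ldha (GRCr8, chr1:106507842-106508091, plus strand): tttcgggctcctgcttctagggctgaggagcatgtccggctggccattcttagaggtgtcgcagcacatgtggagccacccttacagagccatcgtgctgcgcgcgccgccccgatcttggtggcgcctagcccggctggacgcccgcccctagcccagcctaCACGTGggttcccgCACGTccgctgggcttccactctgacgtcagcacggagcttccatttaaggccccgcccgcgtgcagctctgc
Pdk3 (GRCr8, chrX:62547372-62547621, minus strand): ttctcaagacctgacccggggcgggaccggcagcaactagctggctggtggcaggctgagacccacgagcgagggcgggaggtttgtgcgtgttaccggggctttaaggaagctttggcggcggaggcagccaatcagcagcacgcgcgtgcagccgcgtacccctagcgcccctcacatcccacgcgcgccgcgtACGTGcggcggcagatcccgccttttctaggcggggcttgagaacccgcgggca
Sdha (GRCr8, chr1:30764303-30764552, plus strand): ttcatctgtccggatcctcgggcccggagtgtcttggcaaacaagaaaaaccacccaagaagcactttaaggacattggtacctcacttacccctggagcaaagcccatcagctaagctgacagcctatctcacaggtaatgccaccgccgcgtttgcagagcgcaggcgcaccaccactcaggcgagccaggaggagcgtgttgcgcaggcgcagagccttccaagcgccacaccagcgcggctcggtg
The Ldha window held 3 matches, of which the overlapping pair makes the palindrome CACGTG from 87 to 82 bases before the start and the other lies 73 to 69 bases before it. The Pdk3 window held 1 match, 54 to 50 bases before the start, and the Sdha window held 0. Of 33469 promoter windows of this length 16.6% held at least 1 match on either strand. A match describes letters only, and a window with 0 matches can still hold another form of the core.

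S had lower signals than WKY on both Ldha probes, Pgk1 and Pdk3, and R had lower signals than WKY on both Ldha probes and Pgk1. S was also below SHR on 1 Ldha probe, Pgk1 and Pdk3, but by the scan identifier these strains were on different slides. None of these 3 was called once slide was a block in the fit. Of 25 alternatives, the call in S vs SHR was lost in 19 for that Ldha probe, 16 for Pgk1 and 8 for Pdk3. Of 26 alternatives, the call in R vs WKY was lost in 8 for Ldha A_44_P210461, 7 for Ldha CUST_6_PI421900130 and 6 for Pgk1. With slide as a block, R vs WKY also had 0 enzyme probes called. In S vs WKY the call was lost in 11 of 26 for Ldha A_44_P210461 and in 1 for Pdk3. Sdha passed the test in no pair of strains, and no enzyme probe passed between S and R, between SHR and WKY or between R and SHR. A difference is called here when limma's Benjamini-Hochberg adjusted p, over the 35 named mRNA probes tested, is under 0.05. By this rule 65.7% of the 35 were lower in S vs WKY, 42.9% in R vs WKY and 40% in S vs SHR.

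Pgk1 encodes phosphoglycerate kinase, the first ATP-making step of glycolysis. It stood at -1.54, -1.25 and -1.23 in S rats 1 to 3 and at -1.06, -1.38 and -0.22 in R. In SHR it was 2.95 in rat 1, -1.13 in rat 2 and 2.43 in rat 3, and in WKY 0.49, 3.04 and 2.72. The Dahl rats all lay below every WKY rat, while SHR rat 2 lay inside the R range and the other SHR rats within the WKY range. The mean was highest in WKY (2.08 ± 1.39, SD, n = 3), followed by SHR (1.41 ± 2.22), R (-0.89 ± 0.60) and S (-1.34 ± 0.17). Pgk1 was 10.7-fold lower in S than in WKY (limma adjusted p = 0.0092, log2 fold change -3.42 with an SE of 0.95), 7.85-fold lower in R than in WKY (-2.97, adjusted p = 0.0232) and 6.74-fold lower in S than in SHR (-2.75, adjusted p = 0.0423), the last across slides and not called with slide as a block. Neighbours in the order of the means did not pass: S vs R had a log2 fold change of -0.45 (95% interval -2.52 to 1.62), R vs SHR of -2.30 (-4.37 to -0.23, adjusted p = 0.0903) and SHR vs WKY of -0.67 (-2.74 to 1.40).

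Ldha encodes the muscle-type subunit of lactate dehydrogenase, which interconverts pyruvate and lactate. On the custom probe CUST_6_PI421900130 its level was -0.77, -0.33 and -1.02 in S rats 1 to 3, -0.22, -0.63 and -0.25 in R, 4.50, -0.58 and 3.55 in SHR, and 1.102, 4.71 and 4.42 in WKY. As with Pgk1, all 6 Dahl rats lay below every WKY rat, and SHR rat 2 lay among the Dahl rats. WKY had the highest mean (3.41 ± 2.01, SD, n = 3), then SHR (2.49 ± 2.70), R (-0.37 ± 0.23) and S (-0.71 ± 0.35). This probe was 17.4-fold lower in S than in WKY (limma adjusted p = 0.00968, log2 fold change -4.12 with an SE of 1.17), 13.7-fold lower in R than in WKY (-3.78, adjusted p = 0.0225) and 9.18-fold lower in S than in SHR (-3.20, adjusted p = 0.0444), again across slides and not called with slide as a block. R vs SHR had -2.86 (95% interval -5.41 to -0.31, adjusted p = 0.0903), and S vs R (-0.34, interval -2.89 to 2.21) and SHR vs WKY (-0.92, interval -3.47 to 1.63) had intervals on both sides of 0.

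The probe A_44_P210461 for the same accession, called the catalogue probe here from the style of its name, moved over a smaller range. It stood at 0.27, -0.40 and -0.09 in S rats 1 to 3, at -0.47, -0.51 and -0.50 in R, at 1.68, -0.34 and 1.43 in SHR and at 0.76, 1.97 and 1.19 in WKY. R was the lowest and tightest strain here, with every R rat below every S, SHR and WKY rat. It was 3.48-fold lower in R than in WKY (limma adjusted p = 0.0225, log2 fold change -1.80 with an SE of 0.55) and 2.60-fold lower in S than in WKY (-1.38, adjusted p = 0.0403). In S vs SHR, which the custom probe passed, it had -0.996 (95% interval -2.18 to 0.19, adjusted p = 0.141). The means ran from 1.30 ± 0.61 (SD, n = 3) in WKY and 0.92 ± 1.105 in SHR to -0.07 ± 0.33 in S and -0.49 ± 0.024 in R.

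The catalogue and custom Ldha probes were then set against each other within each array, which cancels the scale of the array. The difference, catalogue minus custom, ran from -2.11 ± 1.55 (SD, n = 3) in WKY and -1.57 ± 1.60 in SHR to -0.13 ± 0.22 in R and 0.63 ± 0.61 in S. Between S and WKY the strain difference of the probes was unequal by 2.74 log2 units, and between R and WKY by 1.98, each with no overlap of rats and an exact two-sided permutation p of 0.1, the smallest that 3 rats against 3 can give. Over the 6 pairs of strains none passed (adjusted exact p 0.3 to 0.6). Both probes put the same 4 rats highest. The letters of the probes were not used here.

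Pdk3 encodes a pyruvate dehydrogenase kinase, which phosphorylates and switches off pyruvate dehydrogenase and so limits the entry of pyruvate into the citrate cycle. Its levels were -2.55, -1.30 and -1.93 in S rats 1 to 3 and -0.92, -0.63 and -0.79 in R. They were 0.20, -0.46 and -0.16 in SHR and -0.48, 0.38 and 0.27 in WKY. S lay below every other strain with no overlap, R came next, also with no overlap with SHR or WKY, and the SHR and WKY ranges overlapped. On this probe SHR rat 2 kept close to its strain, 0.66 log2 units below rat 1, where the gap was 4.08 for Pgk1 and 5.09 for the custom Ldha probe.

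Mean Pdk3 was 0.06 ± 0.47 (SD, n = 3) in WKY, -0.14 ± 0.33 in SHR, -0.78 ± 0.14 in R and -1.93 ± 0.63 in S. Pdk3 was 3.96-fold lower in S than in WKY (limma adjusted p = 0.00398, log2 fold change -1.99 with an SE of 0.44) and 3.46-fold lower in S than in SHR (-1.79, adjusted p = 0.0172), the latter across slides and not called with slide as a block. S vs R had -1.15 (95% interval -2.10 to -0.19), with an unadjusted limma p of 0.0222 and an adjusted p of 0.389. R vs WKY had -0.84 (adjusted p = 0.112), R vs SHR -0.64 (adjusted p = 0.24) and SHR vs WKY -0.20 (adjusted p = 0.777). S rat 1, the rat with the lowest Pdk3, was also the dimmest array (mean Pdk3 signal 12.7 intensity units, against 39.2 to 277.6 on the others), and without it S vs WKY was -1.67 and S vs SHR -1.48 (limma adjusted p = 0.0219 and 0.0919).

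Sdha encodes the flavoprotein subunit of succinate dehydrogenase, the enzyme shared by the citrate cycle and the respiratory chain. It stood at 2.30, 1.44 and 1.86 in S rats 1 to 3, at 0.54, 0.78 and 1.52 in R, at 3.32, 0.54 and 2.90 in SHR and at 1.55, 3.64 and 3.22 in WKY. Every R rat lay below every WKY rat, though R rat 3 and WKY rat 1 nearly met, and the other pairs of strains overlapped. The order of the means put S above R, as on the catalogue Ldha probe, with WKY (2.80 ± 1.103, SD, n = 3) and SHR (2.25 ± 1.4998) followed by S (1.87 ± 0.43) and R (0.95 ± 0.51). R vs WKY had the largest difference, a log2 fold change of -1.86 (95% interval -3.46 to -0.26, limma adjusted p = 0.0508), and S vs SHR the smallest, -0.39 (interval -1.98 to 1.21). S vs R was 0.92 (interval -0.68 to 2.52), where Pgk1, Pdk3 and the custom Ldha probe had S below R, and none of the 5 probes passed.

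Counts of calls have to be read against the other mRNA probes of the array, most of which ran the same way. In S vs WKY 4 of the 5 enzyme probes were lower in S (limma adjusted p under 0.05), and so were 65.7% of the 35 probes tested. In R vs WKY 3 of 5 were lower in R, against 42.9%, and in S vs SHR 3 of 5 were lower in S, against 40% of all. Ranges did not overlap for 2 of 5 in S vs SHR, against 31.4% of all, for 5 of 5 in R vs WKY, against 74.3%, and for 4 of 5 in S vs WKY, against 71.4%. The median log2 fold change of the 5 probes was -1.99 in S vs WKY, -1.86 in R vs WKY and -1.79 in S vs SHR, beside -1.99, -1.56 and -1.53 over all 35. The 35 include the 5 enzyme probes, and over the 30 others the medians were -1.96, -1.24 and -1.47. The enzyme median was near that of the others in S vs WKY and further from 0 in R vs WKY and S vs SHR. Whether the enzymes differ from the other mRNA probes was not tested. With 5 probes the shares are coarse, and they are not read as results about the enzymes.

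In the remaining pairs limma called 0 of the 35 mRNA probes (0%), and 2 in S vs R, 0 in SHR vs WKY and 16 in R vs SHR had an unadjusted p under 0.05, among them 1, 0 and 3 of the enzyme probes. Ranges did not overlap for 2 of 5 enzyme probes in S vs R (14.3% of all 35), 0 in SHR vs WKY (2.86%) and 2 in R vs SHR (22.9%). The median of the 5 probes was -0.34 in S vs R, -0.55 in SHR vs WKY and -1.42 in R vs SHR, beside -0.24, -0.45 and -1.02 over all 35. The test of whether the S and R contrast differed from the SHR and WKY contrast passed for 0 of the 35, with 1 at an unadjusted p under 0.05 that was none of the enzymes. Over all strains at once the moderated F of limma passed for 4 of the 5 enzyme probes, all but Sdha (adjusted p = 0.171), against 57.1% of all. S vs SHR, R vs WKY, S vs WKY and R vs SHR share strains in part, so their counts are not independent.

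The same 4 rats, SHR rats 1 and 3 and WKY rats 2 and 3, were highest on all 5 enzyme probes and on 15 of the 30 other mRNA probes. These were the rats in which the median of the other mRNA probes was highest. The gap between the lowest of these 4 and the next rat was 2.45 log2 units for the custom Ldha probe, 1.93 for Pgk1, 0.60 for Sdha, 0.43 for the catalogue Ldha probe and 0.29 for Pdk3. WKY rat 1 came next on both Ldha probes and Pgk1, SHR rat 2 on Pdk3 and S rat 1 on Sdha.

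The levels were also taken relative to the median of the 30 other mRNA probes of the same array. This subtracts a common shift from each array and leaves whatever part of a probe's signal scales more or less steeply with it. The custom Ldha probe was still highest in the same 4 rats, at 5.56 and 4.82 in SHR rats 1 and 3 and 5.54 and 5.57 in WKY rats 2 and 3. It was 1.80 in SHR rat 2 and 2.99 in WKY rat 1. The custom Ldha probe and Pgk1 kept their calls against WKY on this scale: in S vs WKY their log2 fold changes were -3.03 and -2.34 (limma adjusted p = 0.0146 for each), and in R vs WKY -2.71 and -1.90 (adjusted p = 0.042 and 0.0461). The catalogue Ldha probe lost both of its calls, with -0.29 in S vs WKY and -0.73 in R vs WKY (adjusted p = 0.481 and 0.114). Pdk3 lost both too, with -0.90 in S vs WKY and -0.99 in S vs SHR (adjusted p = 0.0921 and 0.102). Between S and SHR, the custom Ldha probe and Pgk1 had -2.39 and -1.95 and were not called (adjusted p = 0.0695 and 0.0607). Sdha changed sign in S vs SHR (0.42) and S vs WKY (0.15), and Pdk3 in R vs WKY (0.23), R vs SHR (0.15) and SHR vs WKY (0.09), none of them called.

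Slide and single rats bore on the calls as follows. On slide 1 alone, with WKY rats 1 and 2 as the WKY group, limma gave the same 3 calls in R vs WKY and the same 4 in S vs WKY: the custom Ldha probe had -3.28 and -3.62, Pgk1 -2.66 and -3.11, the catalogue Ldha probe -1.86 and -1.44, and Pdk3 -1.88 in S vs WKY (adjusted p = 0.00276 to 0.0232). As in the main fit, where 42.9% of the 35 probes were called lower in R vs WKY and 65.7% in S vs WKY, such calls are not particular to the enzymes. No S or R array shared a slide with an SHR array, so S vs SHR and R vs SHR have no value within a slide. With slide as a block, tied together only by WKY, the S vs SHR log2 fold changes were -1.68 for the custom Ldha probe, -1.80 for Pgk1 and -1.47 for Pdk3, with SEs of 2.12, 1.75 and 0.86, and none was called. R vs SHR had -1.35 for the custom Ldha probe, -1.35 for Pgk1, -1.59 for the catalogue Ldha probe and -0.69 for Sdha (adjusted p = 0.784 for each). With this block R vs WKY lost its 3 calls (adjusted p = 0.0847 to 0.0855) at the same log2 fold changes as on slide 1 alone, and no other mRNA probe was called. S vs WKY kept 3 of its 4, the custom Ldha probe, Pgk1 and Pdk3 (adjusted p = 0.0422, 0.0374 and 0.0194), and lost the catalogue Ldha probe (adjusted p = 0.086). The share of all mRNA probes called in S vs WKY with this block is not given here, so this count is not read as a result about the enzymes. On slide 2 alone SHR vs WKY rat 3, with the spread taken from SHR, had -1.93 for the custom Ldha probe and -1.30 for Pgk1 (adjusted p = 0.917 for each).

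SHR rat 2 moved the comparisons with SHR. Without it S vs SHR had -4.74 for the custom Ldha probe and -4.03 for Pgk1 (limma adjusted p = 0.000438 and 0.000227), and a call for the catalogue Ldha probe at -1.63 (adjusted p = 0.00344). R vs SHR then had 4 calls: -4.40 for the custom Ldha probe, -3.58 for Pgk1, -2.05 for the catalogue Ldha probe and -2.16 for Sdha (adjusted p = 0.000719 to 0.0058), all across slides. Over all mRNA probes tested, leaving out SHR rat 2 gave 27 calls in S vs SHR and 21 in R vs SHR. With all rats these counts were 15 and 0, so the calls gained without SHR rat 2 were not particular to the enzymes. Without SHR rat 2, SHR also lay above WKY in the means of Pgk1 (0.60), both Ldha probes (0.62 custom, 0.25 catalogue) and Sdha (0.31). None of these differences was called. The S vs SHR calls of the enzyme probes fell from 3 to 0 without any one of S rat 1, S rat 3, SHR rat 1 or SHR rat 3, to Pdk3 alone without S rat 2 or any one R rat, and to Pgk1 and Pdk3 without WKY rat 2 or 3. Over all mRNA probes tested, S vs SHR calls fell from 15 to 1 without S rat 1, 2 without S rat 3 and 1 without SHR rat 1. They were 12 without S rat 2 and 9, 10 and 11 without R rats 1 to 3. These losses were thus not particular to the enzymes. Over the 4 rats whose loss left 0 enzyme calls, the S vs SHR log2 fold changes ran from -3.17 to -2.19 for the custom Ldha probe, from -2.81 to -1.98 for Pgk1 and from -1.80 to -1.48 for Pdk3. R vs WKY kept 0 of its 3 enzyme calls when R rat 1 or 2, or WKY rat 2 or 3, was left out, Pgk1 alone when R rat 3 was, and gained Sdha when SHR rat 1, SHR rat 2 or WKY rat 1 was. Over all mRNA probes tested, R vs WKY calls fell from 16 to 2, 0 and 10 without R rats 1 to 3, and were 18 without SHR rat 1. Over the 4 rats whose loss left 0 enzyme calls, the R vs WKY log2 fold changes ran from -3.85 to -3.13 for the custom Ldha probe, from -2.89 to -2.49 for Pgk1 and from -1.86 to -1.47 for the catalogue Ldha probe (adjusted p = 0.0586 to 0.0986), so the threshold was missed with differences of like size. In S vs WKY the custom Ldha probe, Pgk1 and Pdk3 passed without any one of the 12 rats, and the catalogue Ldha probe lost its call without any one of the S or R rats, WKY rat 2 or WKY rat 3 (adjusted p up to 0.153). Over all mRNA probes tested, S vs WKY had 17 to 25 calls when 1 rat was left out.

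By Pearson's r over the 12 arrays, a description only because all probes share the scale and the mRNA signal of an array, the probe most like Pgk1 was the custom Ldha probe (r = 0.989, Spearman's rho = 0.937). Next for Pgk1 came Rplp1, a ribosomal stalk protein (0.984), and Ndfip1, an adaptor of ubiquitin ligases (0.984). The custom Ldha probe had Pgk1, Rplp1 (0.984) and Ndfip1 (0.978). The catalogue Ldha probe was most like Pld1, a phospholipase D (0.974), Rpl13a, a ribosomal protein (0.962), and Magoh, a core protein of the exon junction complex (0.959), and r with the custom probe for the same gene was lower, at 0.934. Sdha was most like Magoh (0.952), the catalogue Ldha probe (0.91) and Rpl13a (0.886). Pdk3 was most like Nat1, an arylamine acetyltransferase (0.954), Cdh2, a cell adhesion cadherin (0.923), and Pdcd10, a vascular signalling protein (0.91), and among the enzyme pairs Pdk3 and Sdha had the lowest r, 0.41. Against the 30 other mRNA probes the median r was 0.62 to 0.82, so a high r was common among these probes. It was not shared by all: r was above 0 for 24 of the 30 with Sdha and for 23 with each other enzyme probe. The lowest r was -0.73 for Sdha and down to -0.92 for the others.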

How the data were processed

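Kidney RNA of 12 rats (4 strains, 3 each) was measured on 1-colour arrays. Per the file headers, Agilent Feature Extraction 11.0.1.1 with protocol GE1_1100_Jul11 gave background-subtracted, detrended signal intensities that are not normalized between arrays. These were the deposited intensity values used. The submitters' processing notes also name limma, with no role given. The median spot and background intensities the authors deposited served the normexp alternative. Flags for signal above background, saturation and outlier spots came from the same files, per the file headers. The deposited value table holds circRNA probes only and was not used here.

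Spots flagged as outliers were left out, log2 intensities were averaged over the spots of a probe, and each array was scaled by subtracting its 75th percentile over the 14145 circRNA probes. Names came from matching accessions, without versions, to the GRCr8 RefSeq table (39 of 62 matched, 23 did not). A probe was tested if more than 50% of its spots were well above background on all arrays of at least 1 strain, which kept 35. limma 3.58.1 (R 4.3.3) fitted strain means to the 12 arrays together (8 residual and 12.2 total degrees of freedom), with Benjamini-Hochberg adjustment within each comparison and a threshold of 0.05. The fit was tested on simulated data with independent probes and a spread equal in all strains. That test does not cover probes that move together over arrays, as most of these did. The number of arrays limits the precision. Nothing in the labels says how rats were bred or caged, so the p-values set strain differences against the spread between these rats only. That spread was shared over the 4 strains, although it was unequal, as for Pgk1 with an SD of 0.17 in S and 2.22 in SHR.

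The enzymes, gene lists and tests were chosen with earlier results of these data known. All 5 enzyme probes are named, and for each the 3 mRNA probes with the highest Pearson's r. Same-numbered rats of different strains did not deviate together (r from -0.54 to 0.52 over 18 pairs, 4 above 0.1), so rat numbers were not taken as pairs. Alternatives were normexp (offset 50), quantile or median scaling, the 75th percentile of all non-control probes, levels relative to the other mRNA probes, the median of spots, 2 filters on dim probes, all 55 bright accession probes, 1 fit with 12438 circRNA probes, replicate or slide as a block, single slides, only the compared strains and leaving out each rat.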

Additional observations from a re-analysis of the deposited data

How the results depend on the processing

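Over 27 alternatives, 12 of which left out 1 rat, the 35 log2 fold changes of the enzyme probes gave 890 values, and the 18 with the opposite sign all belonged to differences that were not called in the main analysis. The custom Ldha probe and Pgk1 were called in S vs WKY under all 26 alternatives that hold both strains, Pdk3 under 25 and the catalogue Ldha probe under 15. The main counts of called mRNA probes were 24 in S vs WKY, 16 in R vs WKY, 15 in S vs SHR, 20 for any strain and 0 in the other pairs, and those of enzyme probes 4, 3, 3, 4 and 0. The cause of the moves below was not tested.

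With normexp, S vs SHR had 1 called mRNA probe (7 at an unadjusted limma p under 0.05) and 0 enzyme probes, S vs WKY 11, any strain 5 with 1 enzyme probe, and R vs WKY 5 of 5 enzyme probes. Quantile normalization left 1 enzyme probe in S vs SHR. Counts of enzyme probes given alone in these alternatives have no share of all mRNA probes beside them and are not read as results about the enzymes. Relative to the other mRNA probes the counts were 4 and 0 enzyme probes in S vs SHR, 14 and 2 in S vs WKY and 13 and 2 for any strain. On that scale Sdha was 0.42 in S vs SHR and 0.15 in S vs WKY, Pdk3 0.087 in SHR vs WKY, 0.23 in R vs WKY and 0.15 in R vs SHR, and the difference of S minus R against SHR minus WKY was -0.047 for Pgk1. With the filter on all 12 arrays, which tested 22 probes, S vs SHR had 4 and 1, S vs WKY 13 and any strain 10. With 55 accession probes tested, the counts were 23 in S vs SHR, 33 in R vs WKY, 39 in S vs WKY and 32 for any strain. In 1 fit with the circRNA probes S vs SHR had 1 enzyme probe, R vs WKY 2 mRNA and 0 enzyme probes, and any strain 2 enzyme probes. With only the compared strains S vs SHR had 3 and 0. With slide as a block S vs SHR, R vs WKY and any strain had 0 and 0 (1, 14 and 11 mRNA probes at an unadjusted limma p under 0.05), and Sdha was 0.23 in S vs SHR.

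With the replicate number as a block, S vs SHR kept 1 enzyme probe and any strain 12 mRNA probes. S vs SHR then had -3.20 for the custom Ldha probe and -2.75 for Pgk1 with limma adjusted p of 0.0731 and 0.0537, and the catalogue Ldha probe in S vs WKY had 0.0676. Of 12 rats 0 correlated best with their own number in every other strain.

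Leaving out 1 rat gave 0 to 1 called mRNA probes in S vs R, 1 to 27 in S vs SHR (0 to 4 enzyme probes), 0 to 23 in R vs WKY (0 to 4), 0 to 21 in R vs SHR (0 to 4) and 4 to 26 for any strain (0 to 5). In SHR vs WKY the catalogue Ldha probe ran from -0.76 to 0.25, the custom one from -2.08 to 0.62, Pgk1 from -1.47 to 0.60 and Sdha from -1.18 to 0.31. Sdha ran from -1.24 to 0.15 in S vs SHR, and in S minus R against SHR minus WKY the custom Ldha probe ran from -0.95 to 1.74 and Pgk1 from -1.05 to 1.02. All enzyme probes were well above background on every array, so no filter on dim probes removed any of them. Whether low signal, as for Pdk3 on S rat 1, moved the calls was not tested.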
